A study of Mus musculus with 6 samples.

Results

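The 35 genes described here encode proteins that repair broken or crosslinked DNA and signal its presence: homologous recombination factors, Fanconi anaemia proteins, end-joining factors, damage kinases and a mismatch repair subunit. They were taken by symbol from a table of 24421 genes. All 35 were present, and all 35 were among the 12753 genes with enough reads to be tested. The RNA came from mouse endothelial cells, which line blood vessels, derived from brain. The 3 libraries labelled KO came from cells in which deletion of Fli-1 alleles was induced with 4-OHT (4-hydroxytamoxifen). The 3 libraries labelled WT are given the genotype WT. Whether the cells of the WT libraries also received 4-OHT is not given here, and an effect of 4-OHT apart from the deletion was not tested. Per the series' design text, both groups spent 6 days in co-culture with a vascular niche. The cells were sorted by fluorescence before RNA extraction, and the labels name neither the sort markers, the recombinase nor the deleted exons. Nothing in them states that replicates are separate animals or cultures, so p-values cover only spread among these libraries. For the test blocked on replicate number, used for most calls below, that is the spread left after differences between replicate numbers are removed. It is not the full spread between libraries of a group.

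Homologous recombination copies lost sequence from the sister chromatid, which exists only after a region has been replicated. The proteins that carry it out, and the Fanconi proteins that unhook crosslinks at stalled forks, are therefore mostly needed in S and G2 phase, and many of their genes are transcribed under E2F control as cells enter S phase. Non-homologous end joining, which ligates broken ends directly, and the end-binding complexes that sense breaks, act throughout the cycle. The damage kinases Atm, Atr and Prkdc were classed with them because their genes are not counted among those induced at S-phase entry. Atr nevertheless activates Chek1 when forks stall. On this textbook ground the genes were put in 3 classes: 14 S-phase-linked genes, 9 constitutive genes, and 12 left unclassed because their cycle pattern is less clear. The classes were chosen with earlier results of these data known, so their contrast is not an independent prediction.

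Promoter stretches from genes of each class show the sequence feature that the first class is known for, and the last 2 stretches lack it. In each stretch the capitals mark a match to the E2F core on either strand, with TTCCCGC searched as the first spelling, TTGGCGC as the second, TTCGCGC as the third and TTGCCGC as the fourth. In the last 2, which hold no such match anywhere in the promoter window, they mark the CCAAT box instead (CCAAT on either strand). All are RefSeq sequences on GRCm38.p6, written 5′ to 3′ in the direction of the gene.
Brca2 (recombination mediator, chr5:150522421-150522490, plus strand): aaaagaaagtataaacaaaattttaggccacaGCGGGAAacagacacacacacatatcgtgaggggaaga
Fancb (Fanconi core complex, chrX:164980388-164980457, plus strand): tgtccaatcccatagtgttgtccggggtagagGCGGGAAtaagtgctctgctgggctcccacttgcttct
Chek2 (checkpoint kinase, unclassed, chr5:110839799-110839868, plus strand): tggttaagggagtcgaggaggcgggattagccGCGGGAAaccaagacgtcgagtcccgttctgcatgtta
Lig4 (end-joining ligase, constitutive, chr8:9977724-9977793, minus strand): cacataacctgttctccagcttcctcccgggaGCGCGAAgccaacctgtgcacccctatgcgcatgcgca
Rad54l (recombination motor protein, S-phase-linked, chr4:116123704-116123773, minus strand): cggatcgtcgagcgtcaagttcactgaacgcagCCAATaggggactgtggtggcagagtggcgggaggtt
Mre11a (break-sensing nuclease, constitutive, chr9:14784583-14784652, plus strand): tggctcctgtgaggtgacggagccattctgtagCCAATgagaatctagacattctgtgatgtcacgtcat

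The promoter table, which spans 250 bases before to 50 bases after each start, held 28 of the 35 genes, some with more than 1 start, and a gene counts as matched if any of its windows is. An E2F core match was found for 9 of 11 S-phase-linked genes, 3 of 6 constitutive genes and 5 of 11 unclassed genes, against 19.6% of the 9713 tested genes with a promoter in the table. Such a match stood in 11 of 17 promoters of the G1/S list and 4 of 19 of the G2/M list. Among further repair genes it stood in 11 of 26 promoters of homologous recombination and Fanconi genes and 6 of 13 of checkpoint genes. For mismatch repair, end joining, and base and nucleotide excision repair it stood in 3 of 4, 1 of 6 and 5 of 18. The constitutive genes with a match were Lig4, Xrcc6 and Atm, and the S-phase-linked genes without one were Rad54l and Fanca. A match is a run of letters and not a bound site. The TTTGAA or TTCGAA run of late cell-cycle promoters, called CHR, was found in 1 of 11, 1 of 6 and 1 of 11 promoters of the S-phase-linked, constitutive and unclassed classes, against 15 of 19 promoters of the G2/M list and 15.9% of all. CCAAT stood in 7 of 11, 4 of 6 and 7 of 11, against 42.7% of all. The GC box GGGCGG stood in 8 of 11, 5 of 6 and 6 of 11, against 69.7% of all. These motifs were chosen with the expression results known.

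Library totals ranged from 17550185 to 21385951 counts. Levels are given as CPM, counts per 1000000 of the library size after TMM scaling (edgeR's trimmed mean of M values). Fli1 itself went against the labels: its level was 88.2 ± 19.3 CPM in the libraries labelled KO and 50.2 ± 8.11 CPM in the libraries labelled WT (SD, n = 3 each). Since the deleted exons are not named, reads of the whole gene do not check the deletion, and every direction below is that of the labels. Endothelial markers were abundant: the 12 endothelial markers summed to 15224 to 17038 CPM in the libraries labelled KO and 14476 to 16099 CPM in those labelled WT. The 10 mural markers summed to 1437 to 1877 CPM and 1417 to 2227 CPM, and the 10 fibroblast markers to 147 to 1092 CPM and 196 to 1533 CPM, in libraries labelled KO and WT in that order. In both groups the fibroblast sum was highest in replicate 2. Of 12 blood markers, Cd48, Spi1, Cd3e, Tyrobp and Rac2 had 0 reads in all 6 libraries, and the list summed to 137 to 256 CPM in libraries labelled KO and 107 to 216 CPM in those labelled WT.

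The comparison asked whether repair genes tied to S phase and constitutive repair genes differed between the groups in the same way. They were read by same-numbered pair (KO 1 with WT 1, and so on), as planned. Libraries with the same number also deviated together. S-phase-linked repair genes were higher in the libraries labelled KO: 12 of 14 rose and none fell in edgeR's quasi-likelihood test blocked on replicate number (the paired test, adjusted p under 0.05), and the median log2 fold change was 0.59. Over all genes tested, 4.81% were called higher (613) and 4.01% lower (511), and the median was -0.003. Without TMM scaling the split was 471 higher (3.69%) and 730 lower (5.72%). Of the 9 constitutive genes, 0 rose and 0 fell, which is near the share over all genes, with a median of 0.09. Of the 12 unclassed genes, Rad51b and Chek2 rose and none fell, with a median of 0.10. The test without the block was planned as the main test, with the paired test as an alternative. Without the block, edgeR called 0 of the 35 genes at an adjusted p under 0.05, as it called 0% of all genes higher and 0.00784% lower. In that group test 13 of the 35 were higher at an unadjusted p under 0.05 (10 S-phase-linked, 1 constitutive and 2 unclassed) and none was lower, against 2.64% and 2.15% of all genes. DESeq2 and limma-voom without the block also called 0 of the 35, against 0.0863% and 0% of all genes called higher.

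Markers of other cell types also moved in the paired test, which called 4.81% of all genes higher and 4.01% lower. Of the mural markers tested, 0 of 9 were higher and 3 lower (median -0.49, log2). The mural medians in pairs 1, 2 and 3 were -0.54, -0.43 and 0.15, so pair 3 had the opposite sign. Of the fibroblast markers tested, 1 of 7 was higher and 3 lower, with a median of -0.29, and of the blood markers tested, 2 of 3 were higher and 0 lower, with a median of 0.32. Of the endothelial markers, 2 of 12 were higher and 1 lower, with a median of 0.05. The part of these cells in the rise of the S-phase-linked genes was not tested.

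**Figure D1:**
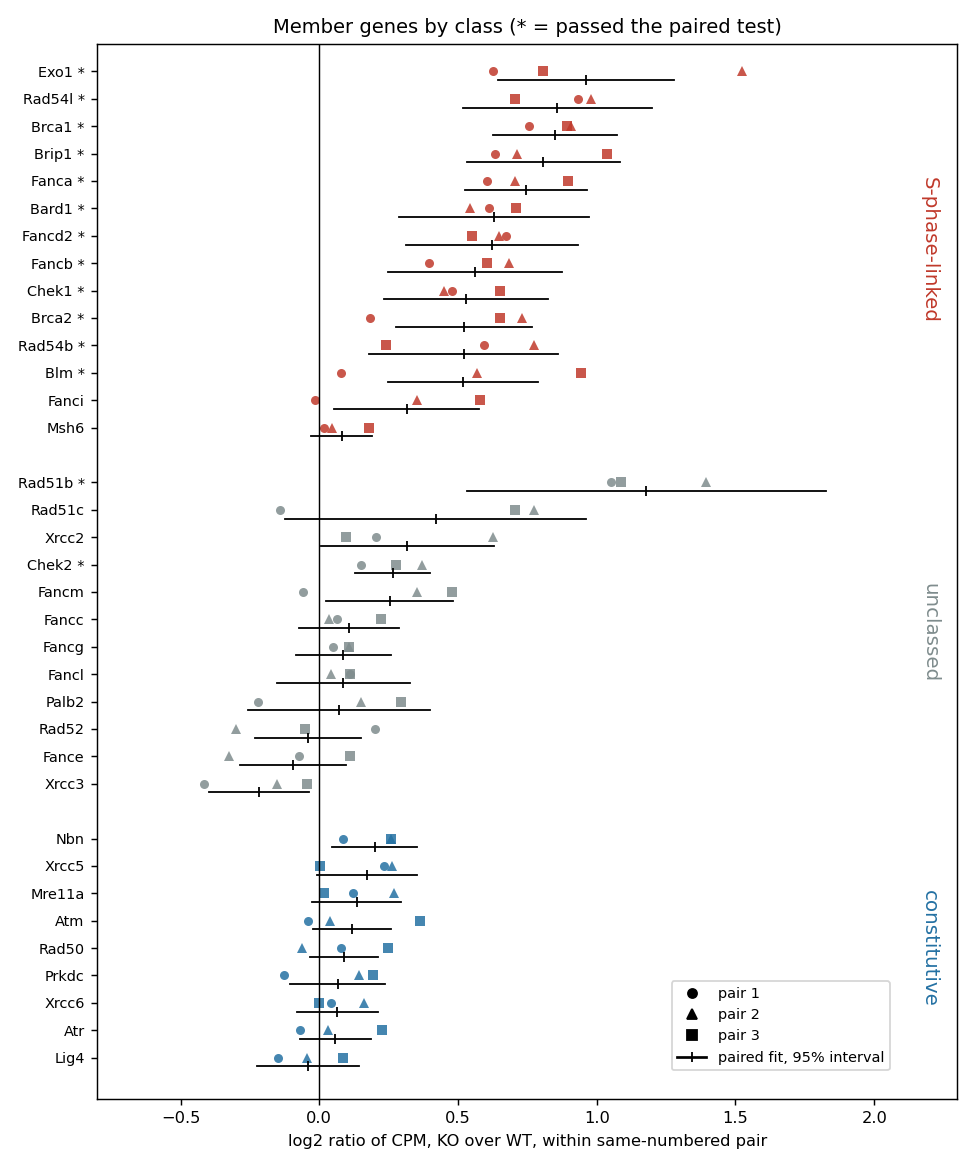
The log2 ratio of CPM, libraries labelled KO over libraries labelled WT, is plotted for each of the 35 genes within each same-numbered pair (symbols), with the fitted paired value and its 95% interval (black bars) and the genes grouped by class. Most S-phase-linked genes lie right of 0 in all 3 pairs, from 0.08 for Msh6 to 0.96 for Exo1 by the fit, while the constitutive genes lie between -0.04 and 0.20.

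Among the recombination mediators, Brca1, a ubiquitin ligase subunit and scaffold that licenses end resection, had 11.1, 9.99 and 13.7 CPM in the libraries labelled KO (replicates 1, 2 and 3), against 6.58, 5.32 and 7.39 CPM in those labelled WT. Every KO value lay above every WT value, and replicate 3 was the highest of each group. The paired log2 fold change was 0.85 ± 0.11 (SE, edgeR adjusted p = 2.62e-07), or 1.80-fold. Its dimer partner Bard1 had 4.09, 3.26 and 5.67 CPM, against 2.67, 2.23 and 3.47 CPM, and rose by 0.63 on the log2 scale (adjusted p = 0.0116). For Bard1 the groups overlapped, since KO 2 lay below WT 3, but each KO library exceeded its own pair. Brca2, a mediator that acts on resected single-stranded DNA, had 7.47, 9.30 and 11.1 CPM, against 6.58, 5.60 and 7.04 CPM. It rose by 0.52 ± 0.12 on the log2 scale (SE, adjusted p = 0.00267). The difference of Brca2 was smaller in pair 1, with a log2 ratio of 0.18, than in pairs 2 and 3, with 0.73 and 0.65. Palb2, which bridges Brca1 and Brca2 and was left unclassed, had 3.52, 3.95 and 4.63 CPM, against 4.10, 3.56 and 3.77 CPM. Its groups overlapped, it was lower in the KO library of pair 1, and its interval of -0.26 to 0.40 includes changes of either direction.

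Of the S-phase-linked class, the nuclease gene Exo1 had the highest log2 fold change in both tests, and the motor gene Rad54l lay within its error of Brca1. Exo1, the exonuclease that resects broken ends and also acts in mismatch repair, had 5.23, 6.57 and 7.41 CPM in the libraries labelled KO, against 3.39, 2.28 and 4.23 CPM in those labelled WT. The groups did not overlap, and the log2 fold change was 0.96 ± 0.16 (SE, adjusted p = 2.3e-05), with pair 2 at 1.52 above pairs 1 and 3 at 0.63 and 0.81. Rad54l, a DNA translocase that acts during strand exchange, had 4.47, 3.85 and 5.91 CPM, against 2.34, 1.95 and 3.62 CPM. Its groups did not overlap, and it rose by 0.86 ± 0.17 (SE, adjusted p = 0.00037). Its relative Rad54b had 4.61, 3.74 and 4.52 CPM, against 3.05, 2.18 and 3.82 CPM, with groups that overlapped because KO 2 lay below WT 3. Rad54b rose by 0.52, at an adjusted p of 0.0447 that lay close to the threshold. The helicase Blm, which dissolves recombination intermediates, had 6.90, 8.39 and 9.32 CPM, against 6.54, 5.65 and 4.84 CPM, and rose by 0.52 (adjusted p = 0.00889). For Blm the log2 ratios spread from 0.08 in pair 1 to 0.94 in pair 3.

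**Figure D2:**
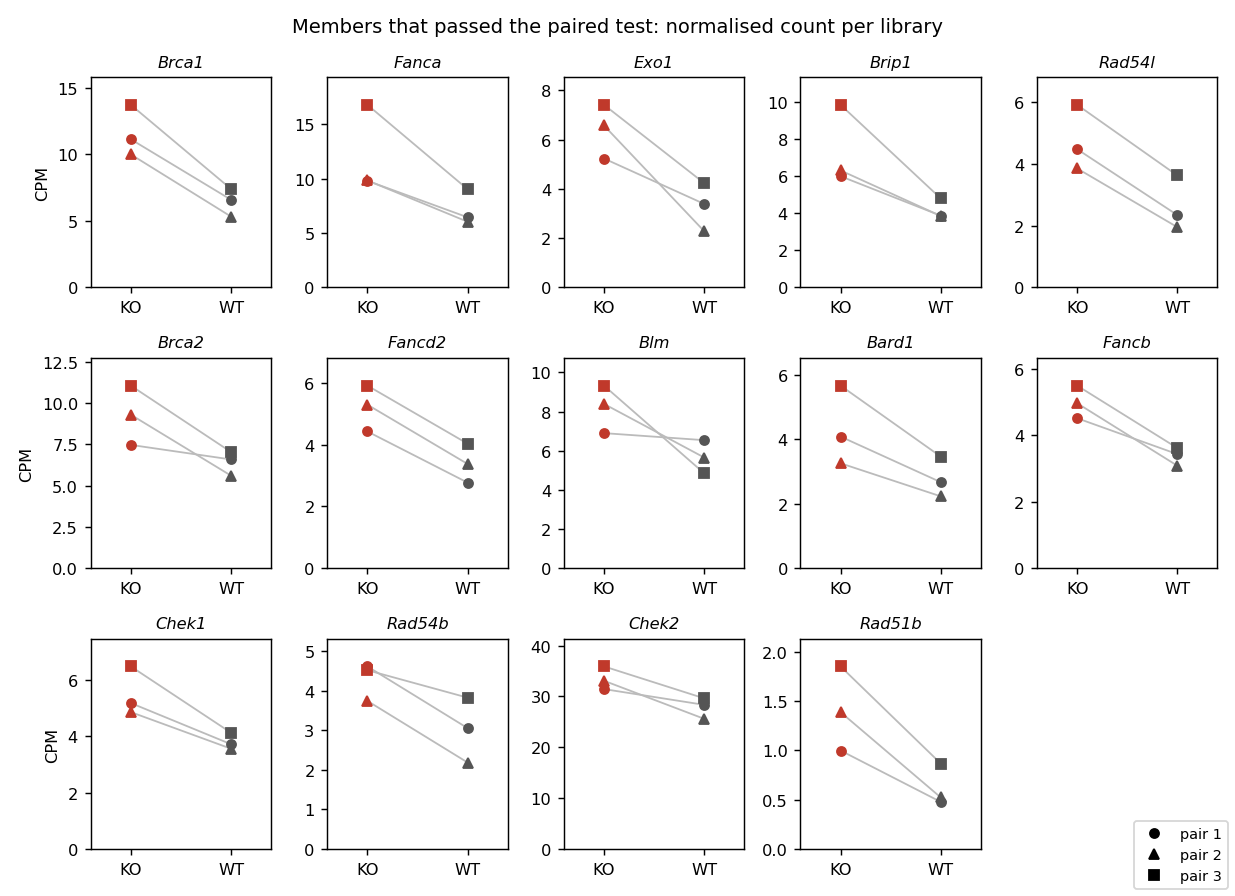
Normalised counts (CPM, each axis from 0) are plotted for the 14 genes that passed the paired test, with libraries labelled KO on the left, libraries labelled WT on the right, and same-numbered libraries joined. Each line slopes down to the right, and the KO and WT points overlap in level for Bard1 and Rad54b.

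Of Rad51b, Rad51c, Xrcc2 and Xrcc3, whose proteins form complexes that assist strand exchange, Rad51b passed and the others did not. Rad51b had 0.999, 1.39 and 1.85 CPM in the libraries labelled KO, against 0.477, 0.522 and 0.867 CPM in those labelled WT. These values rest on 21, 26 and 32 reads against 10, 11 and 17 reads. The groups did not overlap, and the log2 fold change of 1.18 had a 95% interval of 0.53 to 1.83 (adjusted p = 0.0128). Rad51c, at 1.69 ± 0.35 CPM against 1.25 ± 0.34 CPM (SD, n = 3 each), was higher in 2 of 3 pairs and did not pass. Xrcc2 was higher in 3 of 3 pairs, at 4.23, 5.72 and 4.58 CPM against 3.67, 3.70 and 4.28 CPM, and did not pass (adjusted p = 0.233). Xrcc3 was the one gene of the 35 lower in 3 of 3 pairs, at 15.2, 14.0 and 14.8 CPM against 20.3, 15.6 and 15.3 CPM. All 3 KO values lay below all 3 WT values, which held for 4.96% of all genes, and being lower in 3 of 3 pairs held for 20.2%. For Xrcc3 the log2 fold change was -0.22 with an interval of -0.40 to -0.04, and it did not pass (adjusted p = 0.138). Rad52, which anneals complementary strands, had a log2 fold change of -0.04 with an interval of -0.23 to 0.15.

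Calls and misses stood side by side within the Fanconi core complex. Fanca and Fancb, subunits of the core complex that monoubiquitinates the Fancd2-Fanci clamp, both rose. Fanca had 9.80, 9.83 and 16.8 CPM in the libraries labelled KO, against 6.44, 6.03 and 9.02 CPM in those labelled WT, and rose by 0.75 ± 0.11 (SE, adjusted p = 2.75e-06). Fancb had 4.52, 4.97 and 5.50 CPM, against 3.44, 3.09 and 3.62 CPM, and rose by 0.56 (adjusted p = 0.015). Neither gene's groups overlapped. The other core subunits did not pass: Fancc, Fance, Fancg and Fancl had log2 fold changes of 0.11, -0.09, 0.09 and 0.09, and the widest of their intervals, that of Fancl, ran from -0.15 to 0.33. Fancm, the translocase that anchors the core complex at forks, had 8.89, 10.4 and 11.3 CPM, against 9.26, 8.12 and 8.11 CPM, with groups that overlapped and no call (0.25, adjusted p = 0.179).

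Of the clamp pair, Fancd2 had 4.42, 5.29 and 5.91 CPM in the libraries labelled KO, against 2.77, 3.37 and 4.03 CPM in those labelled WT, and rose by 0.62 (adjusted p = 0.00492) without overlap. Fanci had 5.71, 7.21 and 9.38 CPM, against 5.77, 5.65 and 6.27 CPM. Its log2 ratio was -0.02 in pair 1 and 0.35 and 0.58 in pairs 2 and 3, and it did not pass (0.32, adjusted p = 0.134). Whether Fancd2 and Fanci differ in response was not tested. Brip1, the helicase partner of Brca1 that acts downstream of the clamp, had 5.99, 6.31 and 9.85 CPM, against 3.86, 3.85 and 4.79 CPM. Its groups did not overlap, and it rose by 0.81 ± 0.14 (SE, adjusted p = 3.7e-05).

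Both effector kinases of the checkpoint rose, and neither apical kinase passed; the difference between them was not tested. Chek1, the effector kinase that slows the cycle when forks stall, had 5.18, 4.86 and 6.49 CPM in the libraries labelled KO, against 3.72, 3.56 and 4.13 CPM in those labelled WT, and rose by 0.53 ± 0.15 (SE, adjusted p = 0.015) without overlap. The nearest end of Chek1 lies 4.17 Mb from Fli1 on chromosome 9, which also carries Atm, Atr and Mre11a. Chek2, the effector of the break response, was more abundant, with 31.4, 33.1 and 35.9 CPM, against 28.3, 25.6 and 29.6 CPM. It rose by 0.26 ± 0.066 (SE, adjusted p = 0.00606), also without overlap. Of the apical kinases that activate them, Atr had 37.6, 36.5 and 37.4 CPM, against 39.4, 35.7 and 31.96 CPM, and Atm had 29.6, 32.9 and 37.0 CPM, against 30.4, 32 and 28.8 CPM. Both overlapped between groups, and both were lower in the KO library of pair 1 and higher in those of pairs 2 and 3. Neither passed, with intervals of -0.07 to 0.19 for Atr and -0.02 to 0.26 for Atm.

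The remaining constitutive genes stayed within narrow intervals. Nbn, a subunit of the MRN complex that recruits Atm to broken ends, came nearest to a call, with 22.5, 23.4 and 23.6 CPM in the libraries labelled KO, against 21.2, 19.6 and 19.7 CPM in those labelled WT. Its groups did not overlap, and the log2 fold change was 0.20 with an interval of 0.05 to 0.35 (adjusted p = 0.102). The other MRN subunits, Mre11a and Rad50, had log2 fold changes of 0.14 and 0.09 and overlapped. Of the end-joining factors, the Ku subunits Xrcc5 and Xrcc6, the kinase Prkdc and the ligase Lig4 had 0.17, 0.06, 0.07 and -0.04, and all 4 overlapped. Over the 9 constitutive genes the upper ends of the 95% intervals lay between 0.14 and 0.35 on the log2 scale, which leaves room for small changes. Msh6, the mismatch recognition subunit placed among the S-phase-linked genes, did not pass: it had 54.0, 48.9 and 57.2 CPM, against 53.3, 47.4 and 50.4 CPM, and an interval of -0.03 to 0.19.

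Counted over samples, all 3 libraries labelled KO lay above all 3 labelled WT for 10 of 14 S-phase-linked genes, 1 of 9 constitutive genes and 2 of 12 unclassed genes, against 5.25% of all genes tested. The KO library was the higher one in 3 of 3 pairs for 13 of 14, 3 of 9 and 6 of 12 genes of these classes, against 20.5% of all genes. The geometric mean level of the 14 S-phase-linked genes was 6.82, 6.99 and 9.17 CPM in the libraries labelled KO, against 4.93, 4.34 and 5.74 CPM in those labelled WT, with replicate 3 highest in each group. That of the 9 constitutive genes was 23.0, 23.6 and 24.6 CPM, against 22.7, 21.8 and 22.0 CPM. Within pairs 1, 2 and 3 the median log2 ratio of the S-phase-linked class exceeded that of the constitutive class by 0.56, 0.55 and 0.49. The classes also differ in abundance: the median level was 6.89 CPM in the libraries labelled KO and 3.99 CPM in those labelled WT for S-phase-linked genes, and 23.2 and 20.2 CPM for constitutive genes. Smaller changes can be seen in the more abundant class, whose standard errors ran from 0.061 to 0.091, against 0.054 to 0.17 for the S-phase-linked class.

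**Figure D3:**
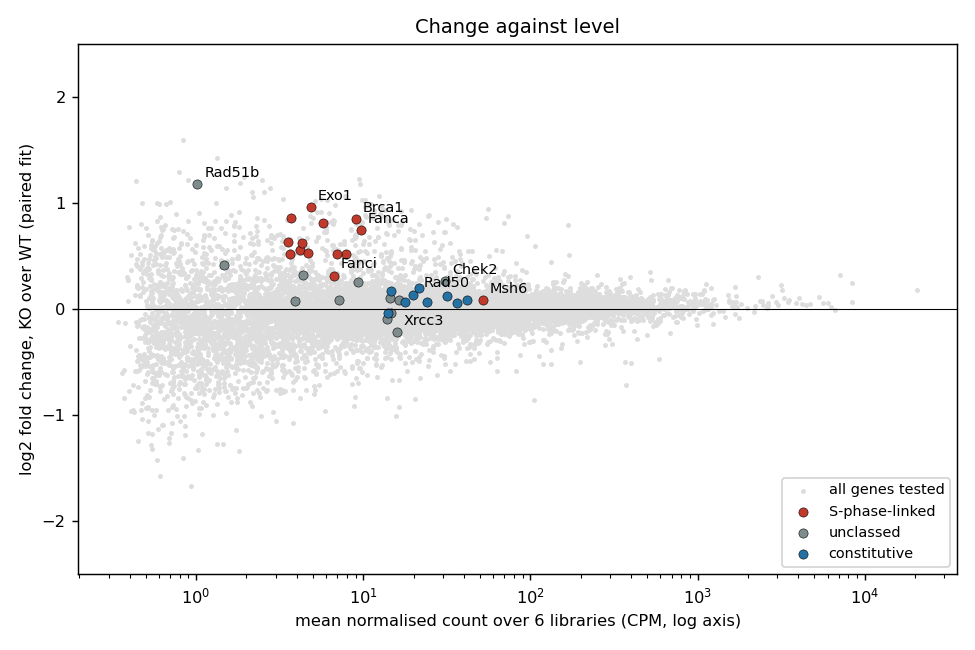
The paired log2 fold change, libraries labelled KO over those labelled WT, is plotted against the mean CPM over the 6 libraries (log axis), with all genes tested in grey, the 35 genes coloured by class, and 2 other genes outside the vertical range. Called S-phase-linked genes lie between 0.52 and 0.96, while the constitutive genes, at higher levels, lie near 0.

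Scaled by the length of the annotated exons, the order of levels among the 35 genes ran from Msh6, with 12.3 CPM per kb in the libraries labelled KO and 11.6 CPM per kb in those labelled WT, to Rad51b, with 0.376 and 0.166 CPM per kb. Chek2 came next to Msh6, with 11.2 and 9.28 CPM per kb, and then Nbn and Rad50, with 9.16 and 8.02 CPM per kb in libraries labelled KO and 7.96 and 7.51 CPM per kb in those labelled WT. Brca1 had 1.36 and 0.754 CPM per kb, and Brca2 0.68 and 0.47 CPM per kb. The labels name a pair of library kits without saying which was used, and the counting's strand setting is not given in what was read here. Of the 35 genes, 12 share exon bases with another gene of the table, so that reads there cannot be assigned without strand. Among the genes that rose these were Rad54l, Rad54b, Fanca and Fancd2. Their overlapping partners that could be tested, Lrrc41 and Zfp276, had log2 fold changes of -0.03 and -0.08. The partner of Rad54b, Fsbp, lies on the same strand, so strand would not assign those reads either.

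Other genes of these pathways also included calls and misses. A list of 33 further homologous recombination and Fanconi genes had 9 higher and 0 lower in the paired test, against 4.81% and 4.01% of all genes, and its median was 0.13 (log2). Polq, the polymerase of the alternative end-joining route, had 4.04, 4.12 and 5.21 CPM in the libraries labelled KO, against 1.96, 1.90 and 2.65 CPM in those labelled WT, and rose by 1.04 (adjusted p = 5.05e-05). Fignl1, an ATPase of the recombination pathway, rose by 0.70, and Rpa1, the large subunit of the single-strand binding protein, by 0.26. Of 18 further checkpoint genes, 3 rose and 0 fell, against the same shares, with a median of 0.10. Clspn, the adaptor through which Atr activates Chek1, rose by 0.67, Tipin, a fork protection factor, by 0.38, and Topbp1, the activator of Atr, by 0.22. Wee1, the kinase that restrains mitotic entry, was at 34.1 ± 10.1 CPM in the libraries labelled KO and 28.4 ± 4.96 CPM in those labelled WT (SD, n = 3 each) and did not pass (adjusted p = 0.0538).

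Of further mismatch repair and end-joining genes, 0 of 6 and 0 of 8 were called, which is near the 4.81% higher and 4.01% lower over all genes. Mlh3 and Pms2, of mismatch repair, had log2 fold changes of -0.08 and 0.05, and Polm, Dclre1c and Aplf, of end joining, had -0.10, -0.08 and -0.11. Of 22 base and nucleotide excision repair genes, 2 rose and 1 fell, again near those shares, with a median of 0.0002. Parp1, which marks nicks with poly-ADP-ribose, rose by 0.21, and Ung, which removes uracil, by 0.64. Ung was low, at 3.92 ± 0.28 CPM in the libraries labelled KO and 2.58 ± 1.13 CPM in those labelled WT (SD, n = 3 each), and its groups overlapped. Ercc5, the endonuclease that cuts beside bulky lesions, had 43.8, 38.2 and 40.5 CPM in the libraries labelled KO, against 51.8, 50.0 and 51.6 CPM in those labelled WT, and fell by 0.33 (adjusted p = 5.2e-05) without overlap. Xpc, the lesion sensor of the same pathway, had a log2 fold change of -0.15 and did not pass (adjusted p = 0.0738).

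Other genes of the cell cycle moved with the S-phase-linked repair genes. Of 22 genes of G1/S transition and replication, 20 rose and 0 fell in the paired test (median 0.52, log2). All 22 genes of the G2/M and mitosis list rose (median 0.87). Over all genes tested, 4.81% were called higher and 4.01% lower. Both lists were chosen with earlier results of these data known. Mki67, a marker of cycling cells, was at 74.0 ± 19.9 CPM in the libraries labelled KO and 38.1 ± 7.84 CPM in those labelled WT (SD, n = 3 each). Mcm5, a subunit of the replicative helicase, was at 45.8 ± 12.5 CPM and 26.8 ± 8.13 CPM, and Pcna, the sliding clamp, at 71.8 ± 8.75 CPM and 60.7 ± 5.45 CPM, in the same order. In pairs 1, 2 and 3 the S-phase-linked median of 0.60, 0.69 and 0.68 lay above that of the G1/S list by 0.18, 0.12 and 0.21 and below that of the G2/M list by 0.23, 0.20 and 0.12. The part of these cycle genes in the repair result was not tested. In bulk RNA of sorted cells, more cells in S phase and more RNA of these genes per cell cannot be told apart.

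**Figure D4:**
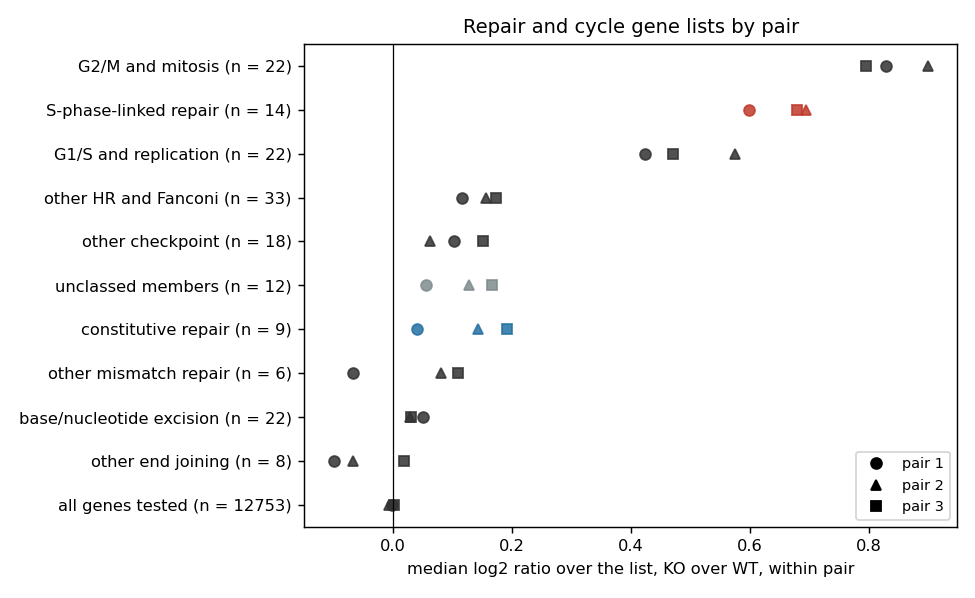
The median log2 ratio of CPM, libraries labelled KO over those labelled WT, is plotted for each gene list within each same-numbered pair (symbols). The S-phase-linked class lies at 0.60, 0.69 and 0.68, between the G2/M list at 0.83, 0.90 and 0.80 and the G1/S list at 0.42, 0.57 and 0.47, and the constitutive class at 0.04, 0.14 and 0.19.

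The calls depend on the paired test, whose pairing the labels do not state, and on the tool. On simulated counts, paired edgeR and limma-voom made a larger share of false calls than their threshold states, and paired DESeq2 did not. DESeq2 with the same block called 4 of the 35 genes, Brca1, Exo1, Brip1 and Fanca, all S-phase-linked and all higher, against 2.07% of all genes. At an adjusted p under 0.01 the edgeR paired test kept 9 of the 14 calls, against 3.04% of all genes called higher. Without TMM scaling and with limma-voom 13 of the 14 remained, against 3.69% and 4.71% of all genes, and Rad54b did not pass. Without pair 1, 13 of the 14 remained and Fanci and Fancm also passed, against 4.69% of all genes. Without pair 2, 8 S-phase-linked genes and 0 unclassed genes were higher, against 2.66% of all genes, and Brca2, Rad54b, Fancb, Chek1, Rad51b and Chek2 no longer passed. Without pair 3, 8 and 1 were higher, against 4.33% of all genes, and Bard1, Blm, Fancb, Chek1 and Rad51b no longer passed.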

How the data were processed

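RNA from 6 sorted endothelial samples was sequenced as polyadenylated RNA. The deposited table holds raw read counts per gene symbol, which the authors did not normalise. Per the submitters' processing notes, reads were handled with STAR 2.6.1d and featureCounts of Subread 1.6.4, besides Trim Galore 0.6.4 and FastQC 0.11.8; mm10 and GRCm38 are both named as builds. Which annotation and strand setting were used, and how multi-mapping reads were counted, is not given in the sources read.

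The 12753 genes that passed filterByExpr were tested in R 4.3.3 with edgeR 4.0.16 (TMM, robust quasi-likelihood F test, Benjamini-Hochberg over all of them, threshold 0.05). Fold changes are libraries labelled KO over libraries labelled WT. Intervals are 95% t intervals from the paired fit and cover the model's spread only. Ratios within pairs use CPM plus 0.01. Alternatives used DESeq2 1.42.0, limma-voom (limma 3.58.1), other scalings, no filter, a threshold of 0.01 and omitted libraries. The smallest two-sided exact permutation p is 0.1 for 3 against 3 libraries and 0.25 for 3 pairs. All 3 tools were tested on simulated counts with and without the block. In a single simulation, 200 of 12753 genes were changed, and the means included differences between replicate numbers. With it, edgeR and limma-voom exceeded the stated share of false calls, DESeq2 stayed within it, and DESeq2 recovered fewer changed genes.

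The design stated by the labels is unpaired. The groups share replicate numbers 1 to 3, and same-numbered libraries deviated together (r = 0.776, 0.857 and 0.652 across genes, for deviations from group means), so the numbers were taken to pair them. The labels do not state this. With the block, the biological coefficient of variation was 0.0383 (0.189 without it), on 2 residual degrees of freedom (4 without it), so that paired p-values rest on a spread pooled across genes. No library pair within a group agreed within sampling noise.

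The members, classes and gene lists were chosen with earlier results of these data known. Named besides the 35 were Fli1, Mki67, Mcm5, Pcna and up to 4 genes with the smallest paired p-value of each further repair list. Some genes that this rule names are not reported here. Abraxas1, Hrob and Paxx were not analysed here. Exon lengths, positions and overlaps are from GENCODE M21 (GRCm38), matched by symbol, and promoters from RefSeq (GRCm38.p6).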

Additional observations from a re-analysis of the deposited data

How the results depend on the processing

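All alternatives reported here were planned. Without the block, 0 of the 35 genes passed under any alternative except the replicate block, which called 12 S-phase-linked and 2 unclassed genes higher, and 613 genes higher and 511 lower over all. DESeq2 called 11 and 7 genes over all, and limma-voom and a threshold of 0.01 called 0 lower. Leaving out 1 library gave 0 to 1 genes lower over all and medians of 0.46 to 0.74 for the S-phase-linked class and 0.099 to 0.16 for the unclassed class. Counting the unclassed genes with the S-phase-linked class moved its median to 0.47, with and without the block.

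In the paired test, DESeq2 called 264 genes higher and 111 lower over all, 4 S-phase-linked and 0 unclassed genes. A threshold of 0.01 left 388 and 259 genes over all and 1 unclassed gene. Counting the unclassed genes with the constitutive class gave that class 2 higher. Leaving out 1 pair gave 339 to 603 genes higher and 205 to 600 lower over all, 8 to 12 S-phase-linked and 0 to 3 unclassed genes higher, and medians of 0.58 to 0.67, 0.010 to 0.14 and 0.076 to 0.18 for the S-phase-linked, constitutive and unclassed classes. With library size alone or limma-voom, Rad54b no longer passed, and no other call among the 35 changed. The cause of these changes was not tested.

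Some genes near 0 changed direction when libraries were left out. Without the block these were Xrcc6 (-0.028 to 0.15), Atr (-0.015 to 0.13), Palb2 (-0.029 to 0.17), Rad52 (-0.17 to 0.065), Fance (-0.19 to 0.0042), Mlh3 (-0.17 to 0.047) and Pms2 (-0.0013 to 0.11). In the paired test they were Lig4 (-0.097 to 0.016), Atr (-0.020 to 0.12), Palb2 (-0.040 to 0.22), Rad52 (-0.18 to 0.080), Fance (-0.20 to 0.014) and Mlh3 (-0.20 to 0.040). None of these genes passed in either test. Counts of 10 to 32 reads limit what can be said of Rad51b.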
